A study of Mus musculus with 6 samples.

Results

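The 10 C-type lectin receptors described here are Clec4n (Dectin-2), Clec4d (MCL, also called Dectin-3), Clec4e (Mincle), Clec7a (Dectin-1), Clec5a (MDL-1), Clec4a1, Clec4a2 (DCIR), Clec4a3, Clec12a (MICL) and Clec10a (MGL1). They were taken by gene symbol as a set of myeloid C-type lectin receptors, 10 of 25700 gene identifiers in the count tables. The rule that selects them names symbols and no threshold on a value, but the list was drawn up with earlier results of these data known. All 10 were measured and all 10 passed the filter on low counts. The bulk RNA-Seq experiment compared 3 heme-treated with 3 control cultures of mouse bone marrow–derived macrophages (BMDMs). Both groups came from C57BL/6J mice aged 8 to 10 weeks and grew in serum-containing medium with M-CSF, the macrophage growth factor, at 100 ng/ml. Heme cultures received 300 µM heme bound to albumin on day 3, control cultures received albumin alone, and both were harvested on day 7. Each library came from the macrophages of 1 mouse, so p-values measure the spread between these 6 libraries only. Whether a heme and a control library came from the same mouse is not given in the sources used here.

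C-type lectin receptors are surface proteins of myeloid cells that bind sugars or lipids of fungi and mycobacteria, and in some cases products of dead cells. Dectin-2, MCL and Mincle have no signalling motif of their own and pair with the adaptor FcRγ (Fcer1g), MDL-1 pairs with DAP12 (Tyrobp), and Dectin-1 carries a motif in its own tail. All of these routes lead to the kinase SYK and onward to CARD9. DCIR and MICL instead carry an inhibitory motif that recruits the phosphatases SHP-1 and SHP-2, and MGL1 takes up galactose-type glycans and is widely used as a marker of alternatively activated macrophages.

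The members Clec4a1 to Clec4e, Clec12a and Clec7a, 8 of the 10, lie in 2 groups on chromosome 6 (GRCm38 coordinates). The Clec4 genes span 368 kb, with Clec4a1 at 122921848 to 122934619 (+), Clec4a3 at 122952515 to 122969875 (+) and Clec4a2 at 123106428 to 123143999 (+). Next come Clec4n at 123229843 to 123247021 (+), Clec4d at 123262111 to 123275265 (+) and Clec4e at 123281789 to 123289870 (−), where Clec4d and Clec4e run toward each other with 6.52 kb between them. Clec12a, at 129342691 to 129365303 (+), and Clec7a, at 129461591 to 129472779 (−), span 130 kb farther along. Clec5a lies apart on chromosome 6 at 40574894 to 40585821 (−), and Clec10a on chromosome 11 at 70156197 to 70170834 (+), so the 10 genes are not a single cluster. The annotation classes 9 of them as protein coding and Clec7a as a polymorphic pseudogene.

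RefSeq promoter windows (GRCm38.p6, 250 bases before to 50 after the start) were searched for 8 members, and those of Clec4n and Clec10a were not analysed here. The 250 upstream bases of 4 members are shown, 5′ to 3′ on the gene's strand, because 3 of them belong to genes that were higher with heme and 1 to the member that fell most, Clec12a, whose window lies inside the span annotated for that gene. Capitals mark matches, on either strand, to GAGGAA (the PU.1 core, TTCCTC on the other strand), TTGCNNAA (C/EBP), TGTGGT (RUNX) and TGANTCA (AP-1).
Clec4d, chr6:123261857-123262106 (+): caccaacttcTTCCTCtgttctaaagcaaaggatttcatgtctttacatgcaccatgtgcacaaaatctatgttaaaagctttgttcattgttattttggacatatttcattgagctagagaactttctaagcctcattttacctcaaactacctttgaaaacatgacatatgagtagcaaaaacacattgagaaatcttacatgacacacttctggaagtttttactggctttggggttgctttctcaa
Clec4e, chr6:123289872-123290121 (-): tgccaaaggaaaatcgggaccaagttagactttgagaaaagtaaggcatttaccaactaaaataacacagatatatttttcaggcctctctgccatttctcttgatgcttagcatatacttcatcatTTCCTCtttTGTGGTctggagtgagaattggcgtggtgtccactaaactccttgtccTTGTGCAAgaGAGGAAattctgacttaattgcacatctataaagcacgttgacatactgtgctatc
Clec5a, chr6:40585806-40586055 (-): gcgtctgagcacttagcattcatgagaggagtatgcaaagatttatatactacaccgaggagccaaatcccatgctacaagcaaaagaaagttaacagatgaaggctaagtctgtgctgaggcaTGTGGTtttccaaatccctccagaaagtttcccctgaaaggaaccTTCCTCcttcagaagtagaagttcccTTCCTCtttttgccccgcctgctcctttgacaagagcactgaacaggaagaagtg
Clec12a, chr6:129349994-129350243 (+): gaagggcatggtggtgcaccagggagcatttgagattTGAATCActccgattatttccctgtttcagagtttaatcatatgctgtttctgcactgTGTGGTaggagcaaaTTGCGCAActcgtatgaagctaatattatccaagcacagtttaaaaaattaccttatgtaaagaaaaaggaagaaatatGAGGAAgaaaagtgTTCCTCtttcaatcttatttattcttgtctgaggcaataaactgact
These 4 windows all held GAGGAA, the core bound by PU.1, the master factor of macrophages, while that of Clec4a2, also higher with heme, did not. Over the full 300 bases it was in 7 of the 8 members (in at least 1 of the 2 windows of Clec4a3 and Clec7a), against 28.3% of 32851 windows of the same length, and the 7 included genes that were higher, lower and not called. TGTGGT was in 5 of 8 (16.8% of all windows), TTGCNNAA in 2, Clec4e and Clec12a (10.8%), and TGANTCA in 2, Clec4a2 and Clec12a (7.81%). Longer patterns for IRF and NF-kB factors were in 1 window each, Clec4d (3.44% of all windows) and Clec4a1 (50.8%). TGACNNNGC, the core of the antioxidant response element to which NRF2 binds, was in 0 of 8 members and in 12.4% of all windows, which says only that these letters are not in these 300 bases. No motif searched overlapped another in the 4 sequences shown.

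The libraries held 27201038 to 32366848 counts with heme and 30509099 to 32994595 in controls. Hmox1, the heme-degrading enzyme, was at 20480 to 21790 CPM with heme and at 547 to 651 CPM in controls (CPM, counts scaled to library size and by TMM), which matched the labels in all 6 libraries. The macrophage markers Adgre1 (645 to 731 CPM with heme, against 967 to 1094 CPM in controls) and Csf1r (1388 to 1560 CPM with heme, against 1785 to 2550 CPM in controls) were present throughout. Of 12433 genes tested with edgeR's quasi-likelihood test, 62.5% were called at a Benjamini-Hochberg adjusted p under 0.05, 31.7% higher and 30.8% lower with heme, and 68.8% had no overlap between the groups. With library size as the only scaling, the median log2 fold change of all genes moved by −0.22 and the calls split into 2580 higher and 5814 lower, against 3938 higher and 3831 lower with TMM.

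Among the 10 receptors, 6 were higher with heme (background 31.7%), 2 were lower (background 30.8%) and 2 were not called. The groups did not overlap for 7 of 10 (background 68.8%). The 8 called members stand against a background of 62.5% called. The median log2 fold change of the 10 was 1.11, beside 0.0041 over all genes tested.

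**Figure D1:**
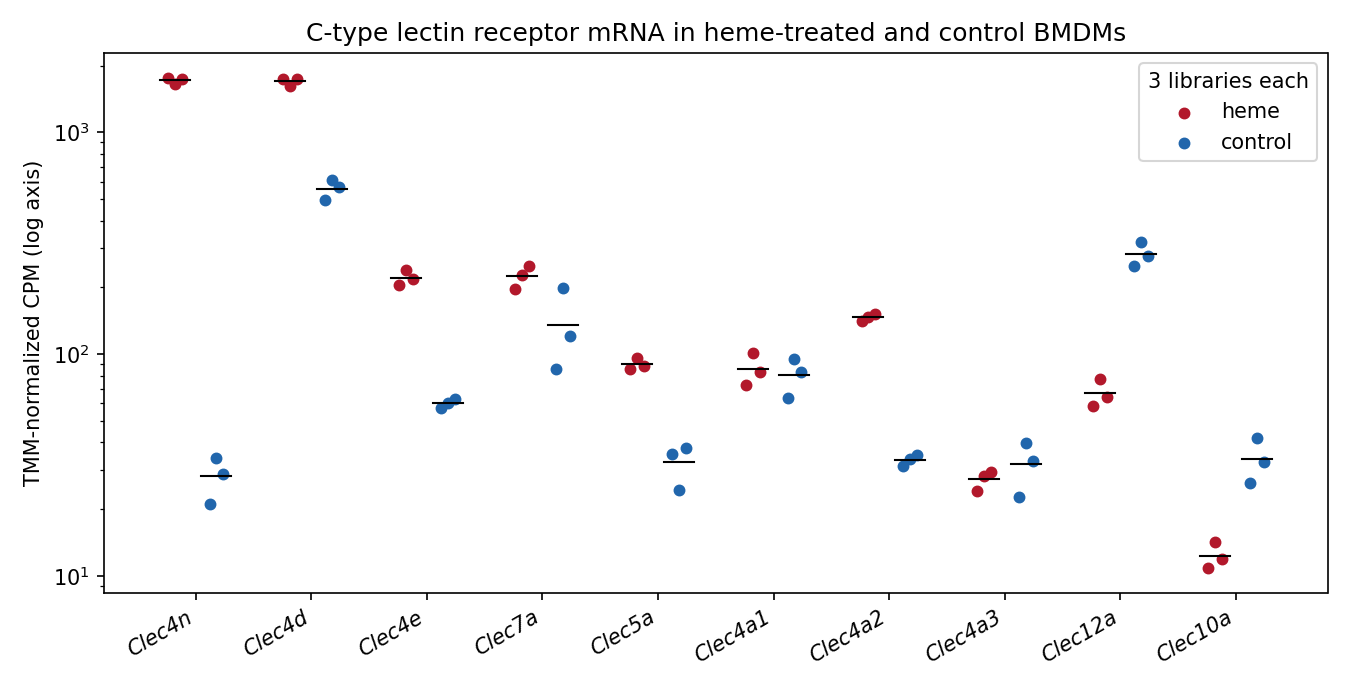
TMM-normalized CPM (log axis) of the 10 receptor genes in each of the 3 heme (red) and 3 control (blue) libraries. Each point is 1 library and each black line a group mean. Clec4n stood at 1656 to 1766 CPM in heme libraries and at 21.1 to 34.2 CPM in control libraries, while the points of Clec4a1, Clec4a3 and Clec7a overlapped between the groups.

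All 3 receptors that pair with FcRγ were higher with heme, and Clec4n had the largest change of the 10 members. Clec4n, the receptor for fungal mannans, had 1766, 1656 and 1748 CPM in heme libraries, against 21.1, 34.2 and 28.9 CPM in control libraries. Every heme library was far above every control library, with raw counts of 41926 to 52432 with heme against 765 to 1146 in controls. The log2 fold change was 5.94 ± 0.17 (SE, n = 3 each, edgeR adjusted p = 9.7e-09), a 61.4-fold difference. It ranked 76 of 12433 by signed log2 fold change. By CPM, which also depends on transcript length, it ranked 43 in heme and 5467 in control libraries.

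Clec4d, which forms a complex with Mincle, was per kilobase of exon the most abundant of the 10 in control cells. It had 1743, 1624 and 1732 CPM with heme, against 493, 610 and 565 CPM in controls. The groups were well separated and the heme libraries lay within 1.07-fold of each other. The log2 fold change was 1.61 ± 0.09 (SE, edgeR adjusted p = 4.3e-07).

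Clec4e, the receptor for mycobacterial cord factor, is the nearest neighbour of Clec4d. It had 206, 239 and 219 CPM with heme, against 57.1, 60.0 and 63.1 CPM in controls. All 3 heme libraries were above all 3 control libraries. The log2 fold change was 1.88 ± 0.08 (SE, edgeR adjusted p = 6.5e-08), 3.68-fold.

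The 3 FcRγ-coupled receptors together held 3714, 3520 and 3699 CPM with heme, against 571, 704 and 657 CPM in controls, 5.66-fold. The adaptor moved the other way. Fcer1g had 600, 593 and 621 CPM with heme, against 879, 959 and 961 CPM in controls, a log2 fold change of −0.63 ± 0.07 (SE, edgeR adjusted p = 3.5e-05). Per kilobase of exon, the summed receptor mRNA was therefore 3.46, 3.29 and 3.32 times the Fcer1g mRNA with heme and 0.333, 0.381 and 0.352 times in controls. These are ratios of mRNA and not of protein.

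Clec7a, the receptor for fungal β-glucans, was the least settled of the called members. It had 197, 228 and 251 CPM with heme, against 85.5, 198 and 121 CPM in controls. Control 2 reached the level of heme 1, so the groups overlapped. The log2 fold change was 0.74 ± 0.25 (SE, edgeR adjusted p = 0.025), and the exact two-sided permutation test gave p = 0.2, where 0.1 is the smallest that 3 against 3 libraries allow. The call was lost with library size as the only scaling (0.52, adjusted p = 0.081), with DESeq2 (0.74, adjusted p = 0.067), for changes beyond 0.5 on the log2 scale (adjusted p = 0.21), and without control 3 (0.67), heme 2 (0.73) or heme 3 (0.66), where adjusted p was 0.063 to 0.086. It was 1.11 without control 2 and 0.49 without control 1, both called. The 3 controls differed by 2.31-fold, and of 6632 genes with a mean of at least 20 CPM, 26 differed by more, beside a median of 1.14-fold.

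Clec5a, the DAP12-coupled receptor that binds dengue virus, had 86.1, 96.5 and 88.0 CPM with heme, against 35.4, 24.4 and 37.7 CPM in controls. The groups did not overlap, and control 2, the highest control for 7 of the other 9 members, was the lowest here. The log2 fold change was 1.47 ± 0.14 (SE, edgeR adjusted p = 1.6e-05). Its adaptor Tyrobp had 567, 539 and 541 CPM with heme, against 607, 712 and 650 CPM in controls (log2 fold change −0.26, edgeR adjusted p = 0.014), a call that was lost without heme 3. Hcst, the adaptor DAP10, was below 5 CPM in every library and was not called (edgeR adjusted p = 0.73).

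The DCIR genes did not move together. Clec4a2, which carries the inhibitory motif, had 141, 148 and 151 CPM with heme, against 31.2, 33.8 and 35.1 CPM in controls. The groups were far apart and each was tight, with a log2 fold change of 2.14 ± 0.07 (SE, edgeR adjusted p = 1.9e-08). Of its 75-base windows, 3.24% also occur in Clec4a4 or Clec4b1, which were at 0.23 and 0.76 CPM with heme and 0.23 and 0.53 CPM in controls. Clec4a1 had 72.8, 101 and 83.1 CPM with heme, against 63.5, 95.0 and 83.1 CPM in controls. Its values overlapped throughout and the log2 fold change of 0.09 ± 0.15 (SE) was not called (edgeR adjusted p = 0.63), turning to −0.13 with library size as the only scaling, −0.06 without control 1 and −0.04 without heme 2. Clec4a3 had 24.2, 28.4 and 29.3 CPM with heme, against 22.8, 39.8 and 32.9 CPM in controls. It was not called (log2 fold change −0.22 ± 0.17, SE, edgeR adjusted p = 0.29), but was called lower with library size as the only scaling (−0.44, adjusted p = 0.043) and without control 1 (−0.42, adjusted p = 0.0046).

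Clec12a and Clec10a went down. Clec12a, an inhibitory receptor that recognizes uric acid crystals, had 58.2, 77.5 and 63.9 CPM with heme, against 251, 322 and 278 CPM in controls. Every heme library was below every control library, at a log2 fold change of −2.09 ± 0.12 (SE, edgeR adjusted p = 5.9e-07). Clec10a had 10.8, 14.2 and 12.0 CPM with heme, against 26.2, 41.8 and 32.7 CPM in controls. These groups did not overlap either, and the log2 fold change was −1.45 ± 0.17 (SE, edgeR adjusted p = 5.5e-05). Its 75-base windows are shared at 4.44% with the near copy Mgl2, which also fell (1.36 CPM with heme, against 2.51 CPM in controls, log2 fold change −0.89, edgeR adjusted p = 0.011) and whose share of common sequence was not measured, so how reads were divided between them is uncertain. In bulk samples, less RNA per cell and fewer cells of a type cannot be told apart.

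**Figure D2:**
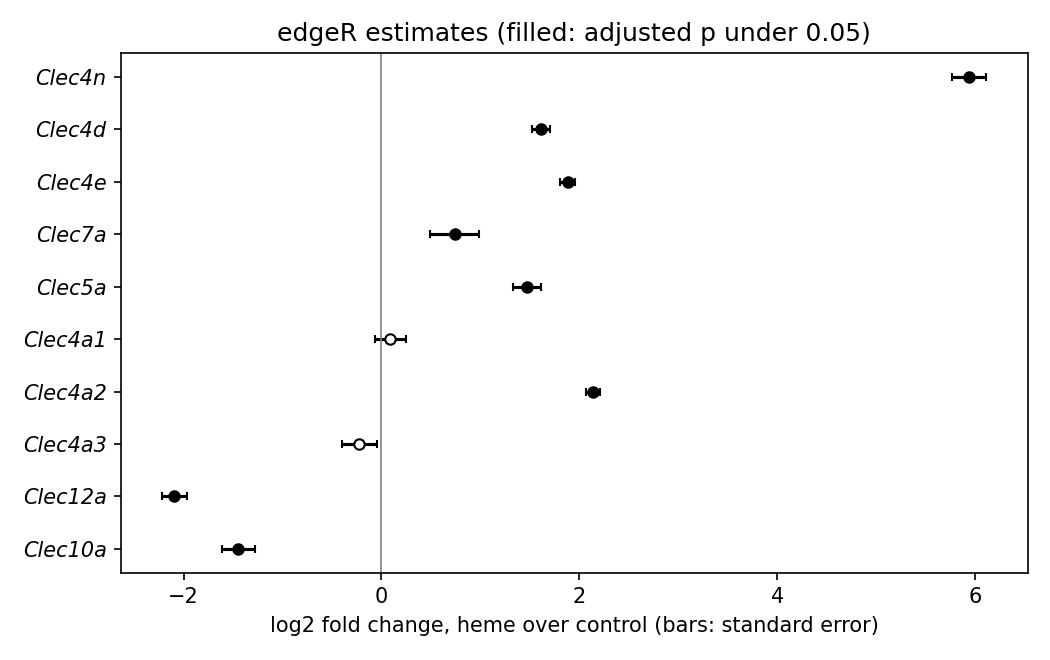
edgeR log2 fold change, heme over control, with standard errors for the 10 receptor genes. Filled points have an adjusted p under 0.05. Clec4n lies at 5.94, the other called higher genes between 0.74 and 2.14, and Clec10a and Clec12a at −1.45 and −2.09.

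Each of the 7 called members other than Clec7a kept its call and direction in all 16 alternative settings or left-out libraries. Their log2 fold changes ranged over these from 5.72 to 6.10 for Clec4n, 1.39 to 1.67 for Clec4d, 1.66 to 1.93 for Clec4e, 1.92 to 2.17 for Clec4a2 and 1.25 to 1.59 for Clec5a. They reached −2.31 for Clec12a and lay between −1.67 and −1.27 for Clec10a. The exact permutation test gave p = 0.1 for each of these 7, the smallest possible with 3 libraries a group.

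The make-up of the receptor mRNA differed between the groups. Per kilobase of exon, which allows a rough comparison of levels between genes, Clec4n averaged 1213 ± 41.4 CPM per kb with heme and 19.8 ± 4.63 in controls (SD, n = 3 each). The length is the union of all annotated exons, 1420 bases for Clec4n and 5528 for Clec12a. A gene whose expressed transcript is shorter than that union is given too low a level and share. Clec4d averaged 1063 ± 41.1 with heme and 348 ± 36.9 in controls. Clec4n thus made up 47.2% of the summed CPM per kb of the 10 receptors with heme and 3.33% in controls, and Clec4d 41.3% with heme and 59.3% in controls. The ratio of Clec4n to Clec4d was 1.14, 1.15 and 1.14 with heme, against 0.0483, 0.0632 and 0.0576 in controls. The share of Clec12a was 0.469% with heme and 8.73% in controls, that of Clec7a 3.32% with heme and 8.45% in controls, and that of Clec4a1 2.15% with heme and 8.73% in controls, although Clec4a1 itself was not called.

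**Figure D3:**
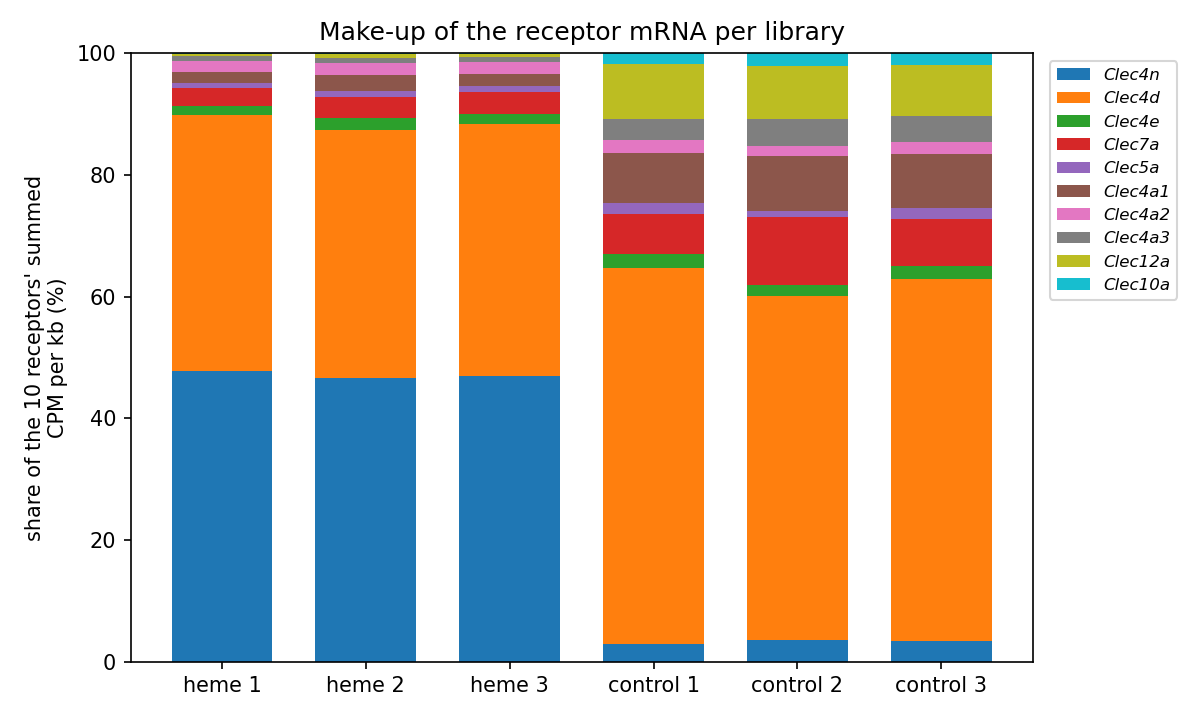
Share (%) of each receptor gene in the summed CPM per kb of the 10, one bar per library, heme left of control. Clec4n and Clec4d fill most of each heme bar (means 47.2% and 41.3%), while Clec4d leads each control bar (mean 59.3%).

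The CPM of the 10 genes summed to 4304, 4213 and 4377 with heme, against 1086, 1458 and 1278 in controls. This was 3.37-fold (exact two-sided permutation p = 0.1). Most of the difference lay in Clec4n and Clec4d, the 2 most abundant members with heme, although Clec4n had the lowest CPM of the 10 in controls. Without Clec4n the sums averaged 2575 CPM with heme and 1246 CPM in controls, 2.07-fold. Without both Clec4n and Clec4d they were 796, 933 and 897 CPM with heme, against 572, 814 and 684 CPM in controls, where the groups overlapped (1.27-fold, exact permutation p = 0.2).

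The tested genes flanking the Clec4 cluster were lower or not called. C3ar1, the C3a receptor gene next to the cluster, was lower (658 CPM with heme, against 1091 CPM in controls, log2 fold change −0.73, edgeR adjusted p = 6.9e-05), as were Foxj2 (−0.38) and the glucose transporter Slc2a3 (−1.23). Necap1 was not called (−0.08). Within the cluster, Clec4b1 averaged below 1 CPM in both groups and was not called (0.50 ± 0.38, SE). Clec4a4 and Clec4b2 were below the filter, as were Vmn2r19 and Vmn2r20 beyond Clec4e. Such low genes do not show whether they followed the receptors. Of the 6 members there, 4 were higher with heme, and the 2 at the Clec4a1 end were not called. Beside Clec12a and Clec7a, Clec2d was lower (−0.97), Clec1a fell to 0.036 CPM with heme against 0.60 CPM in controls (edgeR adjusted p = 0.0011), and the autophagy gene Gabarapl1 was higher (0.44). Clec1a had raw counts of only 1, 0 and 2 with heme, against 11, 26 and 24 in controls, so the size of its change is uncertain.

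**Figure D4:**
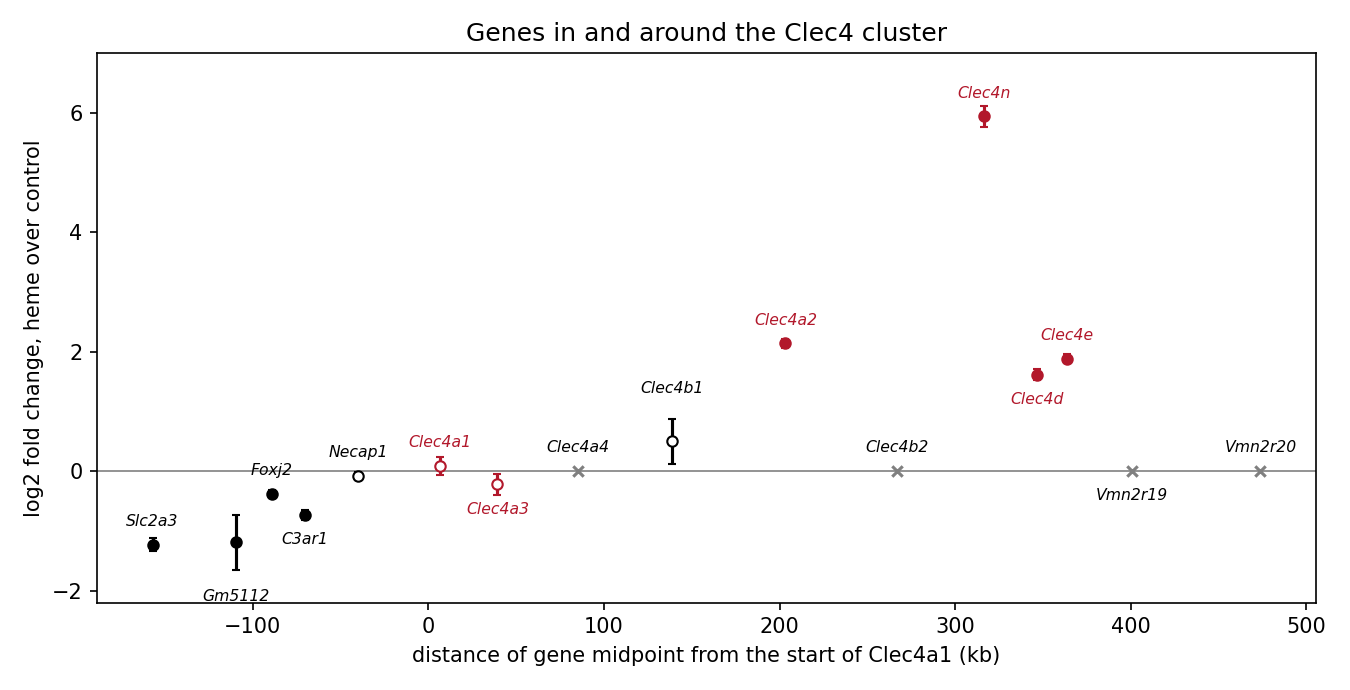
log2 fold change, heme over control, of genes in and within 200 kb of the Clec4 cluster against distance (kb) from the start of Clec4a1, with standard errors. Red marks the receptors, filled points have an adjusted p under 0.05, and grey crosses are genes below the count filter, drawn at 0 without a value. Clec4a2, Clec4n, Clec4d and Clec4e are higher, while C3ar1 is at −0.73 and Slc2a3 at −1.23.

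Downstream of the receptors, the 35 listed signalling genes were mixed, with 8 higher, 14 lower and 13 not called and a median log2 fold change of −0.07. Over all genes tested, 31.7% were higher, 30.8% lower and 62.5% called, and the counts of this and the following lists are to be read against these shares. The kinase Syk had 418, 406 and 397 CPM with heme, against 283, 331 and 335 CPM in controls (log2 fold change 0.36, edgeR adjusted p = 0.0026), but was not called with library size as the only scaling (0.14, adjusted p = 0.11). Card9 had 33.6, 30.9 and 31.9 CPM with heme, against 32.1, 38.2 and 34.3 CPM in controls, and was not called (−0.12, edgeR adjusted p = 0.23). The Src-family kinases Src (2.88) and Fgr (1.82) and the adaptor Lcp2 (1.17) were higher, followed by Malt1 (0.63), the protease that works with CARD9, and the phospholipase Plcg2 (0.47). Cblb, a ubiquitin ligase that limits signalling from these receptors, fell by 1.96 on the log2 scale to 27.9 CPM with heme, against 109 CPM in controls. Pik3cd (−1.09), Nfatc2 (−0.79) and Rubcn (−0.58) were also lower.

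**Figure D5:**
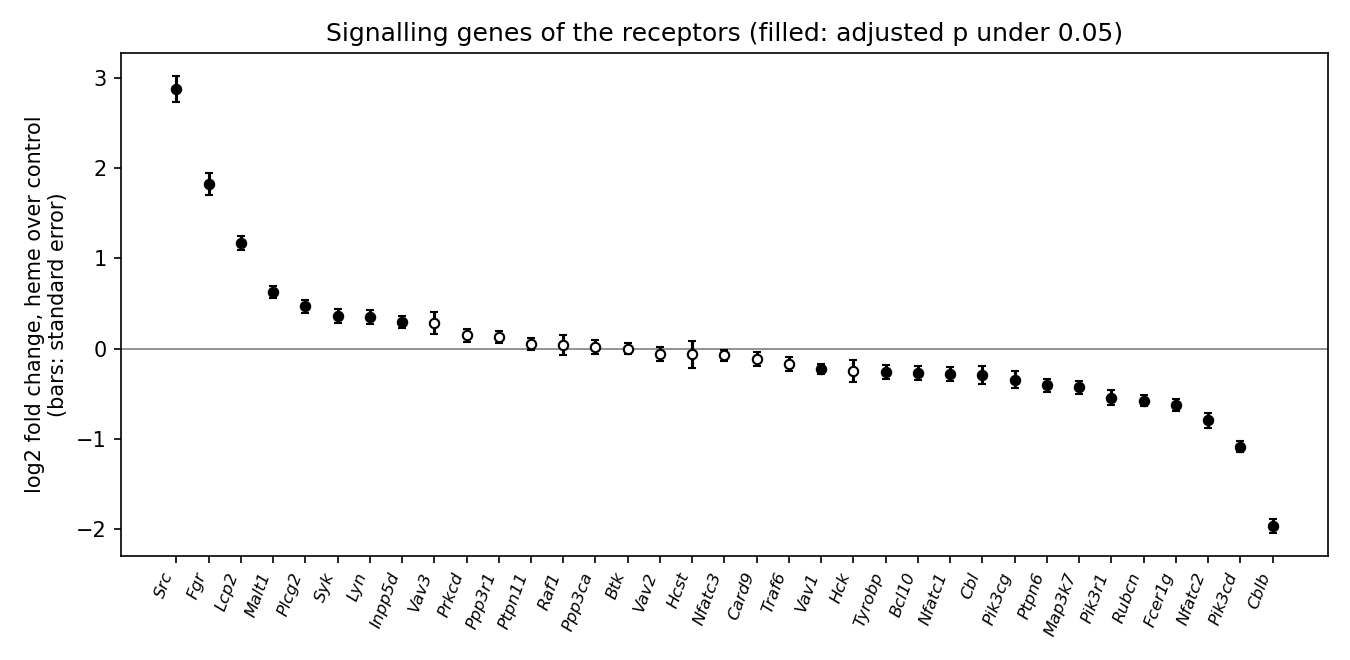
edgeR log2 fold change, heme over control, with standard errors for the 35 signalling genes, ordered by size. Filled points have an adjusted p under 0.05. Src is highest at 2.88 and Cblb lowest at −1.96, with 13 genes not called.

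Of 18 genes known to be induced by these receptors in myeloid cells, 11 passed the filter, 6 were higher and 2 lower. Ptgs2, the inducible cyclooxygenase, had 92.8, 70.6 and 81.7 CPM with heme, against 0.64, 0.33 and 0.46 CPM in controls (log2 fold change 7.41, edgeR adjusted p = 3.3e-09). Tnf had 69.6, 120 and 80.2 CPM with heme, against 22.7, 13.6 and 16.4 CPM in controls (2.35, edgeR adjusted p = 1.7e-05), and heme 2 was highest. The chemokines Cxcl2 (4.18) and Cxcl1 (3.56) and the immediate-early gene Egr2 (1.06) were higher, and Egr3 (−2.48) was lower. Cxcl1 needed the heme libraries and Egr3 the control libraries to pass the filter, so their directions were largely fixed by it. Il10 fell to 0.94 CPM with heme, against 1.87 CPM in controls (edgeR adjusted p = 0.0090). Il1b, Il6, Il23a, Il12b, Csf2, Csf3 and Nos2 did not pass the filter on low counts.

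Of 52 other C-type lectin genes, 20 passed the filter, 5 were higher, 8 lower and 7 not called. Some of these, in each direction, passed it only through the group where they were high. The mannose receptor Mrc1 fell to 19.9, 38.6 and 28.9 CPM with heme, against 1115, 996 and 980 CPM in controls (log2 fold change −5.15, edgeR adjusted p = 8.2e-08). Cd93 (−1.16) and Cd72 (−0.87) were lower. The hyaluronan receptor Layn averaged 231 CPM with heme and 18.5 CPM in controls (3.64), and Ly75 (2.79) and Cd302 (0.80) were higher. Clec16a was called higher (0.26), but not with library size as the only scaling (0.04, adjusted p = 0.60).

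Of 17 myeloid transcription factors, 6 were higher, 7 lower and 4 not called. Spi1, which encodes PU.1, had 287 to 296 CPM with heme and 282 to 320 CPM in controls and was not called (−0.04, edgeR adjusted p = 0.57). Klf4 (1.88), Cebpb (1.58), Ets2 (0.85) and Cebpa (0.70) were higher. Bach1 (0.29) was called higher, but not with library size as the only scaling (0.07, adjusted p = 0.44). The controls of Ets2 were uneven, at 75.9, 32.4 and 61.6 CPM. Ets2 was only just called with library size as the only scaling (0.63, edgeR adjusted p = 0.0499). It was not called for changes beyond 0.5 on the log2 scale. Maf (−2.29), Irf8 (−0.87), Fli1 (−0.68) and Irf5 (−0.61) were lower. Of 5 measured genes, from a list of 6, for proteins that these receptors are reported to bind, Anxa1 (1.76) and Vim (1.12) were higher, Lgals9 (−1.37) was lower, and Sap130, whose protein binds Mincle, was not called (0.05). Anxa5 was called higher (0.24), but not with library size as the only scaling (0.02, adjusted p = 0.81).

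Lists of markers of other cells went different ways. Of 15 neutrophil markers, 12 were tested, 9 were higher and 1 lower, and the list summed to 1419 to 1570 CPM with heme and 123 to 181 CPM in controls. Mmp8 gave most of that sum, at 1211 to 1377 CPM with heme and 27.2 to 36.4 CPM in controls, while the defining marker Ly6g reached at most 0.220 CPM with heme and 0.030 CPM in controls. In its single-cell data from tumor spheroids, the paper lists Mmp8 among the genes high in heme-exposed macrophages, which it identified by Ptprc (CD45) expression. Which cells gave the Mmp8 counts in these bulk cultures was not tested. Elane was at 2.73 to 5.17 CPM with heme and had no count in controls. Elane, Mpo and Cxcr2 passed the filter only through the heme libraries, so their direction was largely fixed by the filter. S100a8 (4.09), Lcn2 (3.58), Ngp (3.36), S100a9 (2.93) and Ltf (2.06) were also higher on the log2 scale. Each of these had at least 18 raw counts in every control library, so both groups met the filter. S100a8 averaged 34.3 CPM with heme and 2.02 CPM in controls, and Ltf 5.57 CPM with heme and 1.33 CPM in controls. Mmp9 and Padi4 were not called. Of 10 classical monocyte markers, 7 of 9 tested were higher and 1 lower, with sums of 342 to 417 CPM with heme and 87.3 to 167 CPM in controls. Among those higher, Plac8 and Ly6c2 also needed the heme libraries to pass the filter. The monocyte genes Ly6c2 and Ccr2 went opposite ways, Ly6c2 at 37.8 to 40.7 CPM with heme and 0.27 to 0.43 CPM in controls, and Ccr2 at 9.83 to 14.9 CPM with heme and 21.7 to 25.4 CPM in controls. The neutrophil marker that was lower was Csf3r, at 31.9 to 41.8 CPM with heme and 50.8 to 106 CPM in controls. Clec4d, Clec4e and Clec5a, which were higher, and Clec12a, which was lower, are all also expressed by neutrophils and monocytes. They are named as examples and do not exempt the other members. The part of these cells in the difference of any member, Clec4n included, was not tested.

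Of 10 macrophage markers, 8 were lower, 1 was higher and 1 not called, with sums of 36350 to 39610 CPM with heme and 32020 to 37840 CPM in controls. Nearly all of that sum was Lyz2, the 1 not called, at 31000 to 34160 CPM with heme and 25170 to 30250 CPM in controls. All 5 tested osteoclast markers were higher, at summed levels of 178 to 214 CPM with heme and 74.5 to 108 CPM in controls. Dendritic cell markers, relevant to Clec4a2 and Clec10a, summed to 4.31 to 5.25 CPM with heme and 3.65 to 5.25 CPM in controls, and 9 of 11 were below the filter. The B cell list summed to 41.6 to 56.6 CPM with heme and 228 to 263 CPM in controls, nearly all of it Ighm. Mast cell and basophil markers were at 1.95 to 4.37 CPM with heme and 0.12 to 0.22 CPM in controls, and the T and NK cell, erythroid and stromal lists were below 1 CPM in every library. The part of any of these in the receptor values was not tested.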

How the data were processed

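RNA of 6 BMDM cultures was sequenced from TruSeq stranded libraries (RIN above 9). The authors deposited raw read counts per Ensembl gene, 1 table per library, and the submitters' processing notes name STAR 2.7.0, featureCounts and GRCm38.p5. Not given in the sources used here are the annotation release, the strand setting and a test for this experiment. Symbols, exon lengths and gene positions came from GENCODE M21 (25664 of 25700 identifiers matched), and promoter sequences from RefSeq (GRCm38.p6).

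Counts were filtered with edgeR's filterByExpr (minimum count 10), scaled by TMM and tested by group with edgeR 4.0.16's quasi-likelihood test in R 4.3.3, with Benjamini-Hochberg adjustment over all 12433 genes and calls at 0.05. A gene passed with enough counts in 3 libraries, so 1 group alone could pass it. For such a gene the direction was largely fixed by the filter. Alternatives were RLE, upper-quartile and no scaling beyond library size, DESeq2 1.42.0, limma-voom (limma 3.58.1), other filters, leaving out the 20 most abundant genes, a replicate block, edgeR's glmTreat with a log2 limit of 0.5, and leaving out each library. Single values were also compared by exact two-sided permutation. Levels per length divide CPM by the union of a gene's exons. On simulated counts of 12067 genes, the test called 49 of 49 genes changed by a log2 fold change of 2. It called 43 of 49 changed by 1, 33 of 50 changed by 0.5, and 14 of 11869 unchanged genes. Nearly all genes in that simulation were unchanged, and a case with as many changed genes as were called in these data was not tested.

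All members are named. From each pathway list, up to 5 called genes in each direction with the largest changes and an average logCPM of at least 0 are named, and Fcer1g, Tyrobp, Hcst, Syk and Card9 always. Some genes that this rule would name are not reported here. Spi1, Sap130 and the neighbouring genes were named outside that rule after their values were seen. The members and lists were chosen with earlier results of these data known. Depth limits counting precision, and 3 counts correspond to 0.101 to 0.119 CPM in heme and 0.083 to 0.092 CPM in control libraries. A replicate's spread may include technical variation.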

Additional observations from a re-analysis of the deposited data

How the results depend on the processing

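The count of called members stayed between 7 and 9 of 10 in every alternative run. Testing for changes beyond 0.5 on the log2 scale called 3333 genes in place of 7769, 8 signalling genes in place of 22, and 7 myeloid transcription factors in place of 13. The summed per-length level of the 10 receptors was 3.58-fold higher with heme as TPM and 4.37-fold as TMM-scaled CPM per kb. Clec4a1, at 0.09, turned to −0.13 with library size as the only scaling and ranged from −0.061 to 0.22 over left-out libraries. With library size only, 5 members were called higher and 3 lower. Leaving out single libraries gave 6710 to 8039 called genes. Whether same-numbered heme and control libraries share a mouse is not given in the sources used here, so the main test was unpaired, and the data gave no sign of pairing by number. Residuals of heme and control libraries with the same number correlated at −0.10, −0.14 and −0.07. With a replicate block, 7164 genes and 8 members were called, and the block changed no member's call. Genes near 0.1 CPM are at the limit that 3 counts set, so Clec4b2, Ly6g and, with heme, Clec1a cannot be compared in size at this depth.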
